A study of Mus musculus with 18 samples.

Results

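The synthetic retinoid TTNPB was set directly against GW1516, an agonist of the nuclear receptor PPARδ, over 22180 genes. The members are the 3 arrays labelled as TTNPB and the 3 labelled as GW1516, which are 6 of the 18 Affymetrix arrays of the series, and they were taken by label alone. All 6 carry RNA of NaF cells, known as a mouse mammary carcinoma line, and the labels give no genotype, passage or animal for them. The cells were grown in DMEM with 10% FBS and were then kept for 48 hours in DMEM holding charcoal-treated FBS at 10%, so that lipophilic molecules of the serum, retinoids among them, were largely removed. Each compound was given at 1 µM for 6 hours. In the same serum, 3 control arrays without ligand and 3 arrays with all-trans retinoic acid at 1 µM for 6 hours were run, and their levels are given below as a frame. The full-medium arrays, which are 3 controls and 3 that received 10 µM palmitate for 6 hours, enter only the estimate of the spread. All values come from 1 cell line, and the labels do not say whether the replicates were separate cultures, so p-values measure the spread between these arrays, which may be technical.

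TTNPB activates the retinoic acid receptors (RARs), which sit on DNA with a retinoid X receptor (RXR) partner at repeated copies of a short hexamer and switch on genes of retinoid breakdown and differentiation. GW1516 activates PPARδ, which also pairs with RXR and is best known for raising genes of fatty acid uptake, storage and oxidation. Retinoic acid can reach either receptor: the binding protein CRABP2 is known to carry it to RARs and FABP5 to PPARδ, and the series' title names FABP5. The direct comparison asks which genes tell a pure RAR agonist from a PPARδ agonist at matched dose and time.

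Values are log2 expression as deposited, and a difference of 1 is a doubling. Background was read from 1394 genes of olfactory and vomeronasal receptors, which these cells should not express. The 95th percentile of their means was 1.29 with TTNPB and 1.30 with GW1516, and 11473 genes (51.7%) exceeded it in at least 1 group. GW1516 replicate 3 stood apart. Its mean absolute deviation from its group was 0.231, whereas the other 11 charcoal-serum arrays had 0.0940 to 0.145, and its median receptor gene read 0.995, whereas theirs read 0.676 to 0.861. Of luminal mammary epithelium markers, 11 of 15 were above background, among them Krt18 (8.30 with TTNPB and 8.02 with GW1516) and Erbb2 (6.97 and 7.16), while Krt8 (1.64 and 1.85) and Epcam (1.57 and 1.47), both defining, were near it. The mesenchymal gene Vim read 10.55 and 10.67. Markers of leukocytes (2 of 9 above background), adipocytes (1 of 6), fibroblasts (3 of 10), basal cells (3 of 7) and endothelium (1 of 7, Cdh5 at 8.44 and 8.21) showed no member past the test.

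The compounds differed at 15 of 22180 genes (0.0676%) in limma with Benjamini-Hochberg adjusted p below 0.05. Of these, 10 (0.0451%) were higher with GW1516 and 5 (0.0225%) were higher with TTNPB. With arrays centred on their medians 6 genes passed, 6 higher with GW1516 and 0 higher with TTNPB, so all 5 calls on the TTNPB side were lost under that scaling. The genes higher with GW1516 included 3 of mitochondrial transport and fatty acid entry, namely Cpt1a, Slc25a34 and Slc25a42. The genes higher with TTNPB included 3 small nucleolar and Cajal body RNA genes, Snora44, Scarna6 and Scarna2, beside Cldn3 and Eif4a1. No RAR target gene passed the test. In the charcoal control, the mean lay nearer the TTNPB mean for 10 of the 15 and nearer the GW1516 mean for 5, a description with no test. At an unadjusted p below 0.05, 2324 genes (10.5%) differed. The 95% interval of the difference lay within 1.5-fold of no difference for 80.1% of all genes and for 65.9% of those above background.

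The calls rest on the spread shared over all 18 arrays. With only the 6 TTNPB and GW1516 arrays in the limma fit, 0 genes passed and 1114 had an unadjusted p below 0.05. With the 12 charcoal-serum arrays, 7 genes passed, all among the 15. Leaving out single arrays gave 5, 4 and 15 genes without TTNPB replicates 1, 2 and 3, and 5, 25 and 45 without GW1516 replicates 1, 2 and 3. Cpt1a, Rhob and Zxda passed in each of these 6 fits.

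**Figure D1:**
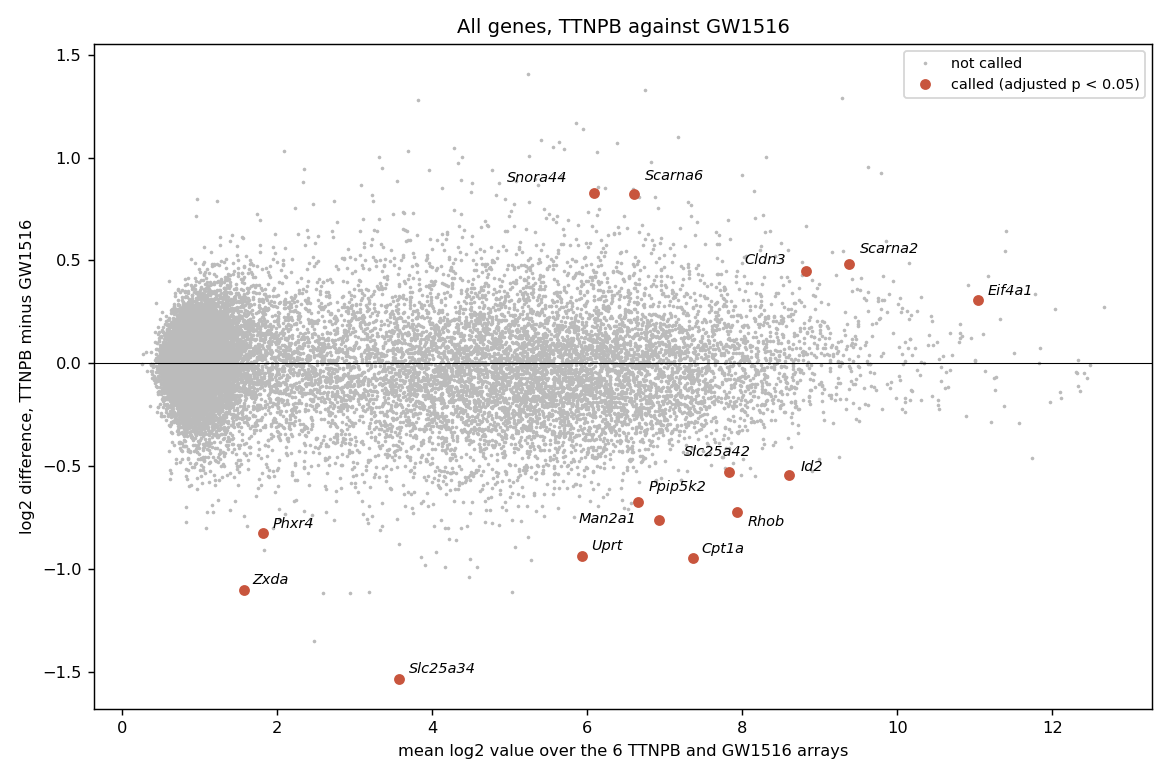
Each point is a gene, with the mean log2 value of the 6 arrays across and the log2 difference, TTNPB minus GW1516, upward, and the 15 genes with adjusted p below 0.05 are marked and named. Slc25a34 lies lowest at -1.53, Snora44 and Scarna6 lie highest among the marked genes at 0.83 and 0.82, and many unmarked genes have differences of the same size.

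Cpt1a encodes the carnitine palmitoyltransferase of the outer mitochondrial membrane, the gate through which long-chain fatty acids enter oxidation, and is a textbook PPAR target. The GW1516 arrays read 7.91, 7.84 and 7.75 and the TTNPB arrays 6.99, 6.70 and 6.97. All GW1516 arrays lay above all TTNPB arrays by a wide gap, and the TTNPB mean of 6.89 ± 0.16 (SD, n = 3) sat slightly under the control mean of 7.12 ± 0.10. Cpt1a was 1.93-fold higher with GW1516 (log2 difference 0.95 ± 0.10 SE, 95% interval 0.74 to 1.16, adjusted p = 0.000499). It passed in all settings but the fit on the 6 arrays alone (adjusted p = 0.481), and its adjusted p was at most 0.00271 when any 1 array of either group was left out. Its retinoic acid mean was 7.11 ± 0.04. Cpt1a lies on chromosome 19 from 3322326 to 3385735 (GRCm38.p6).

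Slc25a34 encodes a carrier of the inner mitochondrial membrane. Its GW1516 arrays read 4.21, 4.24 and 4.60 and its TTNPB arrays 2.98, 2.63 and 2.83. The GW1516 arrays stood alone: the control mean was 2.92 ± 0.20 and the retinoic acid mean 2.86 ± 0.04. The difference was 1.53 ± 0.25 on the log2 scale, or 2.89-fold (95% interval 1.00 to 2.07, adjusted p = 0.0210), the largest among the genes called. Without TTNPB replicate 1, 2 or 3 or GW1516 replicate 1, the adjusted p was 0.0740, 0.190, 0.0658 and 0.0652. Slc25a34 lies on chromosome 4 from 141618819 to 141623891.

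Slc25a42, which encodes a carrier that brings coenzyme A into mitochondria, read 8.11, 8.11 and 8.07 with GW1516 and 7.44, 7.57 and 7.69 with TTNPB. The groups did not overlap, and the control mean (7.57 ± 0.11) was at the TTNPB mean while retinoic acid (7.87 ± 0.01) lay between. The gene was 1.44-fold higher with GW1516 (log2 difference 0.53, interval 0.33 to 0.73, adjusted p = 0.0391). The call was lost without TTNPB replicate 1 or 2 (adjusted p = 0.249 and 0.190) and without GW1516 replicate 1 or 2 (0.0968 and 0.0817). It lies on chromosome 8 from 70184340 to 70212281. Of the 46 measured Slc25 genes, a family picked after values were seen, these 2 passed, beside 0.0451% of all genes called higher with GW1516, and the family's median difference, TTNPB minus GW1516, was 0.00, beside 0.0010 over all genes.

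The promoters of these 3 genes and that of Rarb, the classical RAR target, are shown as a description of sequence at their start sites. Receptor sites farther from the start are not covered. Each run holds 250 bases before and 50 after 1 RefSeq start of the gene (GRCm38.p6), 5′ to 3′ on the gene's strand. For Cpt1a and Rarb this start lies well inside the gene's full span, so the outermost start is not shown. The windows are chr19:3323051-3323350 (plus strand) for Cpt1a, chr4:141623785-141624084 (minus strand) for Slc25a34, chr8:70212232-70212531 (minus strand) for Slc25a42 and chr14:16575427-16575726 (minus strand) for Rarb. Capitals mark the hexamers AGGTCA or AGTTCA or GGTTCA on either strand and direct repeats of 2 hexamers (each AGGTCA or AGTTCA or GGTTCA or GGGTCA) spaced by 5 or by 1 bases, whatever bases lie between.
Cpt1a: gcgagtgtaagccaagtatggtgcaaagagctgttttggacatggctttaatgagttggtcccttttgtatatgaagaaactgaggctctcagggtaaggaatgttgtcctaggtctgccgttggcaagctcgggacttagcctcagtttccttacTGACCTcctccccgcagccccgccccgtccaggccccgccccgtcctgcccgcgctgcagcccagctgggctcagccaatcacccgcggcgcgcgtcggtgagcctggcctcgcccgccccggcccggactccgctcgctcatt
Slc25a34: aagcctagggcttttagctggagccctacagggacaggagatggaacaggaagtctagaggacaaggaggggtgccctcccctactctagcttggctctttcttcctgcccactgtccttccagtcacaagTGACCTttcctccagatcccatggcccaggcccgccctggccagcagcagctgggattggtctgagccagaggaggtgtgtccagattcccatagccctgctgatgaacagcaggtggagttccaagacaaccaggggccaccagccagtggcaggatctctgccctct
Slc25a42: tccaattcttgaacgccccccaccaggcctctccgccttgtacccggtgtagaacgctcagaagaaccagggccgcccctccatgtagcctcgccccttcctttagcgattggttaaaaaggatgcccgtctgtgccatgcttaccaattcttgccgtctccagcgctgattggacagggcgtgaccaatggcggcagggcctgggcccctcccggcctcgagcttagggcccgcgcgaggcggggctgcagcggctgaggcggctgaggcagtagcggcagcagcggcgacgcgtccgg
Rarb: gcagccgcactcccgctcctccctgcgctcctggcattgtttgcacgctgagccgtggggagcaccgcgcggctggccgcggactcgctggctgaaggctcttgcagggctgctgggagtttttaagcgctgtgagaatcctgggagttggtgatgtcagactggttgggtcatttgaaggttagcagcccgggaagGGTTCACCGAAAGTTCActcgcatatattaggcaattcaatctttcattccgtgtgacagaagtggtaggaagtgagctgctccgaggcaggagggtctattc

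In Cpt1a and in Slc25a34 the capitals are AGGTCA read on the opposite strand, at bases 157 to 162 and 132 to 137 of the window. Over all 32851 RefSeq promoters of that length, 16.3% hold AGGTCA on either strand and 22.9% hold AGTTCA or GGTTCA. Slc25a42 holds none of these letters in this window. The capitals of Rarb, bases 198 to 214, are a direct repeat with spacing 5, which overlaps 2 matches of the single hexamer and which 32 promoters (0.0974%) share. Repeats with spacing 1 occur in 0.222%. Of the 15 genes called, 11 had a promoter entry (not Zxda, Scarna2, Scarna6 or Snora44), 2 held AGGTCA (Cpt1a and Slc25a34), 1 held AGTTCA or GGTTCA (Id2) and 0 held either repeat. A match of letters is a description, not evidence of binding, and Rarb itself did not pass the test between the compounds.

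Rhob, which encodes a small GTPase of endosomes and the cytoskeleton, differed with narrow spread. It read 8.20, 8.33 and 8.34 with GW1516 and 7.43, 7.62 and 7.66 with TTNPB, and the control mean, 7.94 ± 0.09, lay between the groups while retinoic acid (7.55 ± 0.04) lay with TTNPB. Rhob was 1.65-fold higher with GW1516 (log2 difference 0.72 ± 0.08 SE, adjusted p = 0.000546), and it passed in all settings but the 6 arrays alone (adjusted p = 0.819). It lies on chromosome 12 from 8497661 to 8500009. Id2, an inhibitor of helix-loop-helix transcription factors, read 8.82, 8.86 and 8.95 with GW1516 and 8.42, 8.35 and 8.24 with TTNPB, and the control mean was above both at 9.03 ± 0.03. It was 1.46-fold higher with GW1516 (adjusted p = 0.0131), with adjusted p = 0.0655 and 0.0512 without TTNPB replicates 2 and 3. None of the other 9 measured genes of the Id and helix-loop-helix list passed.

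Uprt, whose product resembles uracil phosphoribosyltransferases of nucleotide salvage, read 6.50, 6.23 and 6.47 with GW1516 and 5.48, 5.14 and 5.78 with TTNPB. Both groups stood above the control mean of 4.79 ± 0.13, and GW1516 exceeded TTNPB 1.91-fold (adjusted p = 0.0210). Man2a1, which encodes the Golgi mannosidase that trims N-linked glycans, read 7.24, 7.24 and 7.46 against 6.59, 6.36 and 6.71 with TTNPB, and was 1.69-fold higher with GW1516 (adjusted p = 0.0210). The control mean of Man2a1, 6.88 ± 0.03, lay between the groups. Ppip5k2, a kinase gene of inositol pyrophosphate synthesis, was 1.59-fold higher with GW1516, at 6.93, 7.02 and 7.03 against 6.42, 6.19 and 6.36 (adjusted p = 0.0210). Its control mean (6.33 ± 0.05) was near the TTNPB level and its retinoic acid mean (6.90 ± 0.11) near the GW1516 level. Uprt lost its call without TTNPB replicate 1 or 2 or GW1516 replicate 1 (adjusted p = 0.0838, 0.183 and 0.0952), and so did Man2a1 (0.0838, 0.190 and 0.0652). Ppip5k2 lost it without any 1 array except GW1516 replicate 3 (adjusted p = 0.0739, 0.190 and 0.0627 without TTNPB replicates 1, 2 and 3, and 0.0738 and 0.0607 without GW1516 replicates 1 and 2).

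The remaining genes higher with GW1516 were dim. Zxda, a zinc finger gene of the X chromosome, read 1.83, 2.21 and 2.33 with GW1516 and 1.14, 0.94 and 0.98, all under background, with TTNPB. It was 2.15-fold higher with GW1516 on this scale (log2 difference 1.10 ± 0.15 SE, adjusted p = 0.00359), and with only the 12 charcoal-serum arrays the adjusted p was 0.0571. Phxr4 read 2.40, 1.91 and 2.39 against 1.44, 1.28 and 1.51 and was 1.77-fold higher with GW1516 (adjusted p = 0.0210), but not without TTNPB replicate 1 or 2 or GW1516 replicate 1 (adjusted p = 0.0740, 0.183 and 0.0913). Levels this near background understate a ratio, so these folds are those of the signal.

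**Figure D2:**
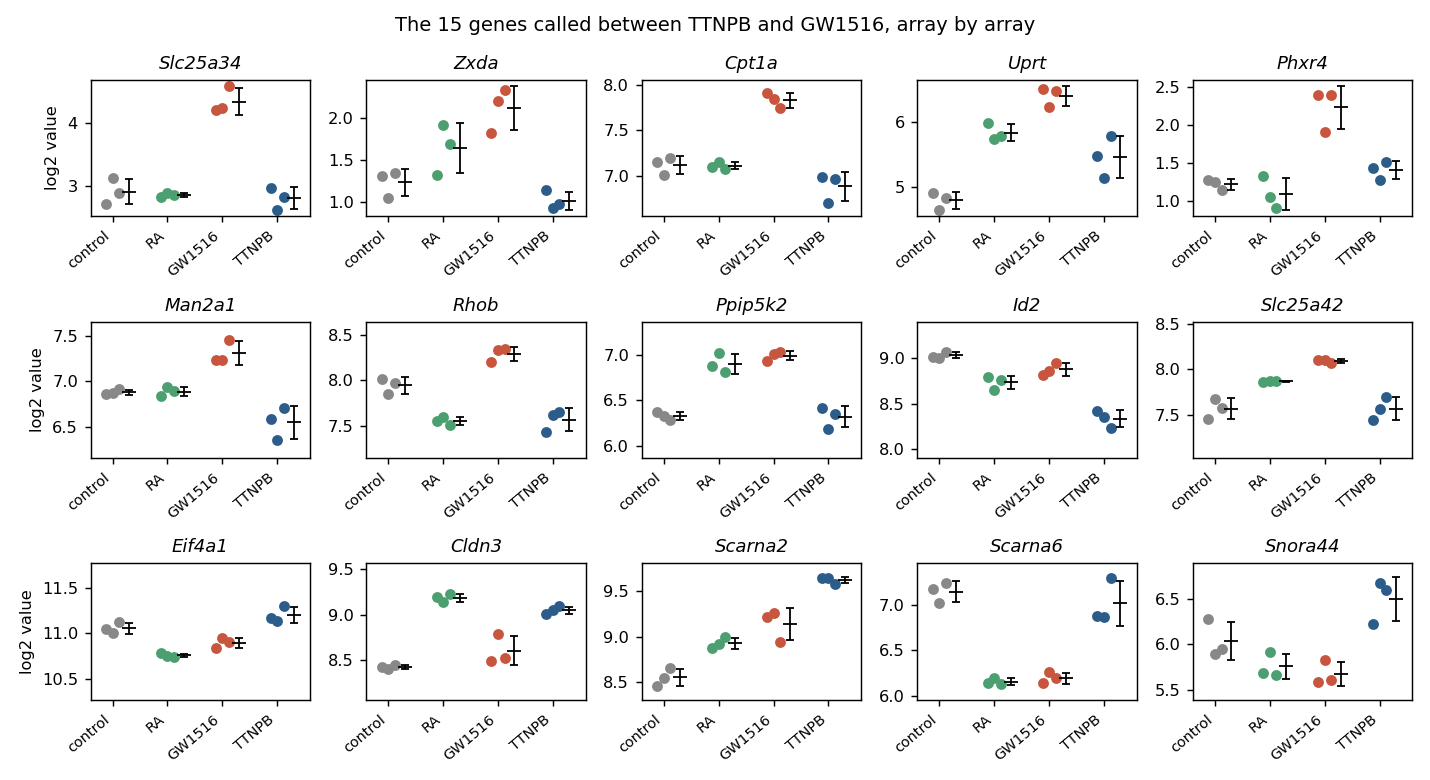
Log2 values of the 15 genes with adjusted p below 0.05 on each charcoal-serum array, by group, with black bars for the group mean ± SD. For every gene the TTNPB and GW1516 arrays do not overlap, with Slc25a34, Cpt1a and Slc25a42 showing TTNPB near the control and GW1516 above it.

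Among genes higher with TTNPB, 3 encode guide RNAs of the nucleus. Snora44, a box H/ACA small nucleolar RNA that guides pseudouridylation, read 6.23, 6.68 and 6.60 with TTNPB and 5.58, 5.83 and 5.61 with GW1516, with the control mean of 6.04 ± 0.21 between them. Its retinoic acid mean, 5.76 ± 0.14, lay near the GW1516 mean of 5.67. Snora44 was 1.78-fold higher with TTNPB than with GW1516 (log2 difference 0.83 ± 0.14 SE, adjusted p = 0.0210). Snora44 lies on chromosome 4 from 132309953 to 132310069, within the host gene Snhg12, whose own mean was 2.71 with TTNPB and 3.05 with GW1516 (difference -0.34, adjusted p = 0.462). The call was lost without TTNPB replicate 2 or 3 or GW1516 replicate 1 (adjusted p = 0.190, 0.0841 and 0.0968).

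Scarna6, a guide RNA of Cajal bodies that directs modification of spliceosomal RNAs, read 6.88, 6.87 and 7.29 with TTNPB and 6.13, 6.25 and 6.19 with GW1516. Its control mean, 7.14 ± 0.11, was with the TTNPB arrays and its retinoic acid mean, 6.15 ± 0.04, with the GW1516 arrays, and it was 1.77-fold higher with TTNPB (adjusted p = 0.0210). It lies on chromosome 1 from 87784571 to 87784818 within Atg16l1, whose difference was -0.24 (adjusted p = 0.467). Scarna2, on chromosome 3 from 108554342 to 108554402 and within no other gene of the reference table, read 9.64, 9.64 and 9.58 with TTNPB and 9.21, 9.26 and 8.94 with GW1516. Here both groups were above the control mean of 8.55 ± 0.10, and TTNPB exceeded GW1516 1.40-fold (adjusted p = 0.0337). The retinoic acid mean of Scarna2, 8.93 ± 0.06, lay under the GW1516 mean of 9.14. Both calls failed without TTNPB replicate 1, 2 or 3 or GW1516 replicate 1: the adjusted p was 0.0549, 0.0655, 0.0836 and 0.0913 for Scarna6 and 0.189, 0.190, 0.0758 and 0.0652 for Scarna2.

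Cldn3 encodes a claudin of epithelial tight junctions. It read 9.01, 9.05 and 9.09 with TTNPB and 8.49, 8.78 and 8.53 with GW1516, and the retinoic acid mean (9.18 ± 0.04) was near TTNPB while the control mean (8.43 ± 0.03) was near GW1516. The gene was 1.36-fold higher with TTNPB (log2 difference 0.45 ± 0.08 SE, adjusted p = 0.0230). It lies on chromosome 5 from 134986214 to 134987476. It was the 1 gene to pass among the 15 measured luminal markers. Of the 23 measured claudin genes, a family picked after values were seen, no other passed. Eif4a1, the RNA helicase of the cap-binding complex, read 11.17, 11.13 and 11.30 with TTNPB and 10.83, 10.94 and 10.90 with GW1516, a 1.24-fold difference (adjusted p = 0.0466). Its control mean was 11.06 ± 0.06, and its retinoic acid mean, 10.76 ± 0.02, lay under the GW1516 mean of 10.89. A second, dimmer probe set of Eif4a1 had the opposite sign, at 5.89 with TTNPB and 6.16 with GW1516 (difference -0.27, adjusted p = 0.474 over all probe sets), so the gene's direction depends on the probe set. Without TTNPB replicate 1, 2 or 3 or GW1516 replicate 1, the adjusted p was 0.0838, 0.183, 0.0868 and 0.0968 for Cldn3, and 0.135, 0.144, 0.122 and 0.0972 for Eif4a1.

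Among genes with arrays apart, a level above background in at least 1 group and a difference of at least 0.5, the next in order by p did not pass. On the GW1516 side these were the retroviral silencer gene Zfp809 (log2 difference, TTNPB minus GW1516, -0.99, adjusted p = 0.0538), the zinc finger gene Zfp846 (-0.95, 0.0691), Pcf11, which encodes a factor of transcript cleavage (-0.73, 0.0745), the splicing kinase gene Prpf4b (-0.79, 0.0883) and the cystine transporter gene Slc7a11 (-0.99, 0.0883). On the TTNPB side the nearest was Slc6a13, a transporter gene for GABA and taurine. It read 5.35, 5.40 and 5.41 with TTNPB and 4.73, 4.45 and 4.97 with GW1516, with a control mean of 4.64 ± 0.13 and a retinoic acid mean of 6.16 ± 0.03. Its TTNPB arrays lay above all GW1516 arrays (difference 0.67, adjusted p = 0.0883), and without GW1516 replicate 3 it passed (difference 0.80, adjusted p = 0.0186). The others on that side were Snord13 (0.72, adjusted p = 0.107), Snord55 (0.94, 0.107), Retreg3, which encodes a receptor of endoplasmic reticulum turnover (0.66, 0.118), the cathepsin gene Ctsz (0.61, 0.148) and the sialyltransferase gene St3gal3 (0.54, 0.155). Below them came Sla2 (0.57, adjusted p = 0.155), Snora75 (1.33, 0.155), the 5S ribosomal RNA gene n-R5s136 (1.40, 0.167) and the keratin gene Krt83 (0.88, 0.168). The size of n-R5s136 and Snora75 exceeded that of any called gene on the TTNPB side, but their TTNPB arrays spread widely, with Snora75 at 6.71, 7.98 and 7.54. Retinoic acid means of Snord13, Snord55, Snora75 and n-R5s136 were 7.33, 3.92, 5.46 and 4.57, beside GW1516 means of 7.91, 3.49, 6.08 and 4.54. For St3gal3 and Krt83 the retinoic acid means were 6.43 and 5.58, beside TTNPB means of 6.50 and 5.30.

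None of the 20 measured RAR target genes passed the test between the compounds. Cyp26b1, which encodes an enzyme that breaks down retinoic acid, came closest. It read 4.15, 3.64 and 4.25 with TTNPB and 3.34, 3.53 and 3.38 with GW1516, beside control arrays with a mean of 3.41 ± 0.30 and retinoic acid arrays with a mean of 6.03 ± 0.19. The TTNPB arrays lay above the GW1516 arrays, TTNPB replicate 2 by little, and the difference was 0.60 (interval 0.24 to 0.95, unadjusted p = 0.00235, adjusted p = 0.264). Rarb, the receptor gene that RARs switch on, read 3.29, 3.48 and 3.82 with TTNPB and 3.19, 3.39 and 2.93 with GW1516. The groups overlapped, and the difference of 0.37 (interval 0.00 to 0.73, adjusted p = 0.471) was 0.25 without GW1516 replicate 3. Rara, another RAR gene, had the opposite sign (difference -0.36, interval -0.70 to -0.03, adjusted p = 0.449), with 3.36, 3.73 and 3.76 against 3.90, 3.79 and 4.25, and Rarg had 0.29 (interval -0.18 to 0.76, adjusted p = 0.670). Without GW1516 replicate 3 the differences of Rara and Rarg were -0.23 and 0.03.

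For the transglutaminase gene Tgm2 it was 0.12 (interval -0.05 to 0.29), with both means, 7.88 and 7.76, above the control mean of 7.38 ± 0.04. For the nuclear receptor corepressor gene Nrip1 it was 0.00 (-0.34 to 0.34), and for the retinol uptake receptor gene Stra6 0.07 (-0.20 to 0.34), where GW1516 replicate 3 at 9.91 stood above the other GW1516 arrays at 9.27 and 9.26, and without it the Stra6 difference was 0.29 (adjusted p = 0.175). Cyp26a1, Cyp26c1 and the retinaldehyde reductase gene Dhrs3 did not exceed background with either compound, and the carrier gene Crabp2 was near it at 1.40 with TTNPB and 1.33 with GW1516. Over the list, all 3 TTNPB arrays lay above all 3 GW1516 arrays for 3 of 20 genes (Cyp26b1, Cdx1 and Meis2), beside 5.94% of all genes, and the reverse held for 2 (Rara and Meis1), beside 6.93%. Of these, Meis1 was under background in both groups. Cdx1 (1.62 with TTNPB and 1.37 with GW1516) and Meis2 (1.77 and 1.33) were near it. The list's median difference was 0.07, and 0.15 without GW1516 replicate 3, beside 0.0010 and 0.0357 over all genes. Only 12 of the 20 genes exceeded background, and replicate 3 read high at that level (median receptor gene 0.995). Without it, Cyp26c1 and Dhrs3, both under background, went from 0.08 and 0.10 to 0.17 and 0.24, and Cyp26a1 stayed at 0.06. Members above background moved both ways. Stra6 and Rara went from 0.07 and -0.36 to 0.29 and -0.23, and Rarb and Rarg from 0.37 and 0.29 to 0.25 and 0.03. The list's median covers dim and expressed targets alike, and the cause of its rise was not tested. Of 18 genes of retinoid uptake, synthesis and storage, 8 exceeded background and 0 passed, with a median of 0.05, or 0.12 without GW1516 replicate 3.

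Of the 24 measured PPAR targets, 1, Cpt1a, passed the test as higher with GW1516 and 0 passed as higher with TTNPB. Acadl, the long-chain acyl-CoA dehydrogenase gene of β-oxidation, read 6.62, 6.73 and 6.71 with GW1516 and 6.18, 6.27 and 6.54 with TTNPB, without overlap (difference, TTNPB minus GW1516, -0.35, interval -0.58 to -0.12, adjusted p = 0.274). Acadm, the medium-chain dehydrogenase gene, overlapped at 6.37, 6.43 and 7.02 against 6.41, 6.04 and 6.26 (difference -0.37, adjusted p = 0.450, and -0.16 without GW1516 replicate 3). Pdpk1, a kinase gene upstream of AKT reported as a PPARδ target, read 6.13, 6.06 and 7.0 with GW1516 and 6.04, 5.96 and 6.09 with TTNPB. The difference of -0.36 (interval -0.74 to 0.01, adjusted p = 0.494) rested on GW1516 replicate 3, without which it was -0.06.

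Plin2, which coats lipid droplets, was low on that array: GW1516 replicates 1 and 2 read 7.14 and 7.54, replicate 3 read 6.63, and the TTNPB arrays read 6.83, 6.74 and 6.74. Its difference was -0.33 (adjusted p = 0.469), and -0.57 without GW1516 replicate 3 (adjusted p = 0.0480). Acot2, a mitochondrial acyl-CoA thioesterase gene picked after its values were seen, had the same shape, with 6.22, 6.08 and 4.59 against 5.37, 5.50 and 5.48, and passed only without that array (difference -0.70, adjusted p = 0.0186). Its neighbour Acot1 read 6.44, 6.49 and 6.81 against 5.94, 5.97 and 6.33 (difference -0.50, adjusted p = 0.272). The paralogs are near-identical, and whether their probe sets tell them apart was not tested. Angptl4 was under background in both groups and Pdk4 was near it, at 1.34 with TTNPB and 1.22 with GW1516, so these PPARδ markers gave no measure. Ppard itself differed by -0.07 (interval -0.39 to 0.26), and Fabp5 by -0.19 (interval -0.56 to 0.18, adjusted p = 0.728). Without GW1516 replicate 3 these were 0.11 and -0.04.

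All 3 GW1516 arrays lay above all TTNPB arrays for 5 of the 24 PPAR targets (Cpt1a, Acadl, the acylcarnitine carrier gene Slc25a20, Acot1 and Klf10), beside 6.93% of all genes. The reverse held for 1, Plin5, beside 5.94%, but Plin5 was under background in both groups, at 1.24 with TTNPB and 0.89 with GW1516. The list's median difference was -0.08 with all arrays and -0.05 without GW1516 replicate 3. Without that array, the remaining GW1516 arrays lay above all TTNPB arrays for 7 of the 24 genes, and the reverse held for 7. Over all 22180 genes these counts were 2878 and 3931, so the lean in counts to GW1516 depended on which arrays were included. Among 22 fatty acid oxidation genes, which share Cpt1a, Acadl, Slc25a20 and others with that list, 1 passed. There the GW1516 arrays stood above for 4 genes and the TTNPB arrays for 3, Cpt2, Acads and Hadh (differences 0.40, 0.26 and 0.33, adjusted p = 0.453, 0.274 and 0.237). Cpt2 encodes the partner of Cpt1a on the inner membrane, and without GW1516 replicate 3 its difference was 0.10.

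**Figure D3:**
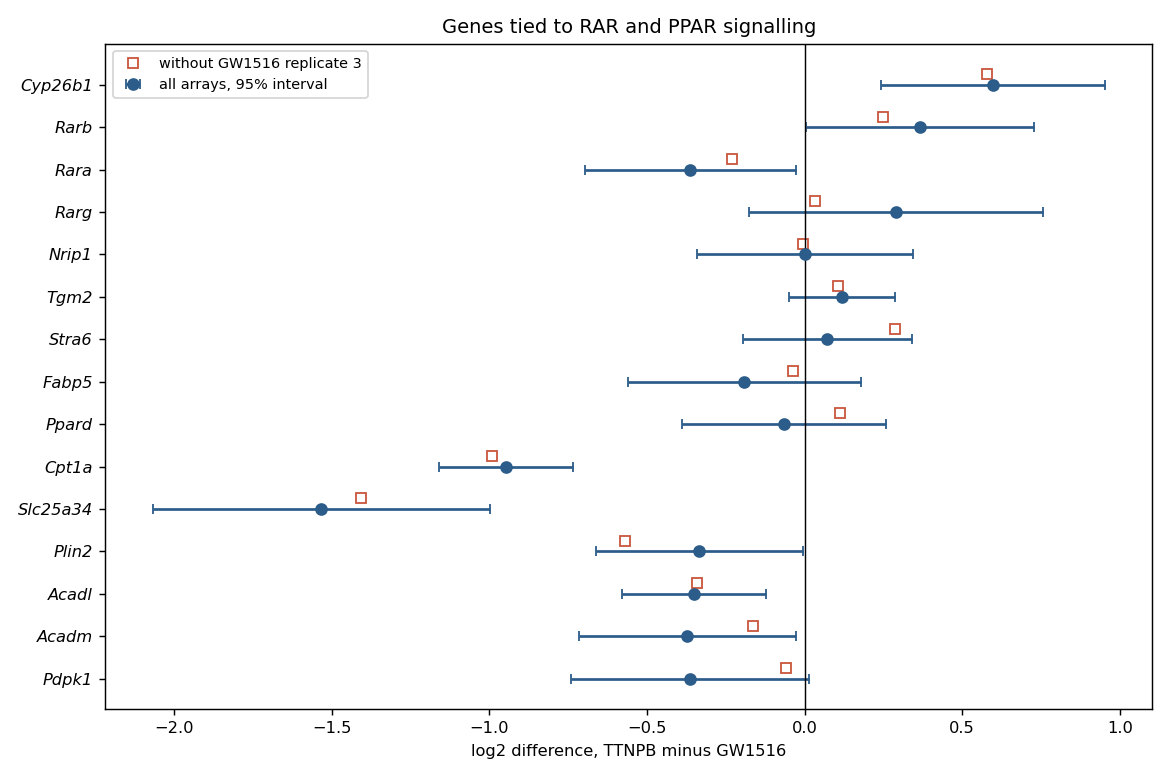
Log2 difference, TTNPB minus GW1516, with its 95% interval for the RAR and PPAR genes named by rule, with filled points for all arrays and open squares without GW1516 replicate 3. Cpt1a at -0.95 and Slc25a34 at -1.53 stand clear of 0, while Cyp26b1 at 0.60 has the most positive value, and Pdpk1 and Plin2 move between the 2 fits.

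Other lists held few or no genes past the test, and their counts and medians describe them. The shares set beside them are over all genes, of which 51.7% exceeded background. Some lists, such as the receptor cofactors, lie wholly above it, and a share over expressed genes alone was not taken. Of 19 genes of fatty acid synthesis and LXR targets, 0 passed. GW1516 arrays stood above TTNPB arrays for 5 (Srebf1, Abca1, Abcg1, Me1 and Lpcat3) and below for 0, beside 6.93% and 5.94% of all genes, with a median of -0.08. The cholesterol exporter gene Abca1 had 4.38, 4.34 and 3.89 with GW1516 and 3.53, 3.46 and 3.58 with TTNPB (difference -0.68, adjusted p = 0.144), and passed without GW1516 replicate 3 (difference -0.84, adjusted p = 0.0285). Of 19 cholesterol synthesis genes, 0 passed. TTNPB arrays stood above for 5 (Hmgcs1, Sqle, Fdps, Lss and Ebp) and GW1516 arrays for 1 (Sc5d), beside 5.94% and 6.93% of all genes, with a median of 0.10. Fdps, which encodes farnesyl diphosphate synthase, read 8.04, 7.84 and 7.86 against 7.63, 7.63 and 7.61 (difference 0.29, adjusted p = 0.280, and 0.28 without GW1516 replicate 3). Without that array Hmgcs1, Lss, Sqle and Ebp went from 0.58, 0.25, 0.17 and 0.15 to 0.34, 0.08, 0.09 and 0.11. The list's median was then 0.07, with TTNPB arrays above for 6 genes and below for 3. The list's mean level was 5.79, 5.73 and 5.84 with TTNPB and 5.74, 5.84 and 5.46 with GW1516. The groups thus overlapped, and GW1516 replicate 3 was lowest.

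Among 14 receptor cofactor genes, GW1516 arrays stood above TTNPB arrays for 6, namely Ncoa2, Ncoa7, Med1, Ppargc1a, Crebbp and Lcor, and TTNPB arrays above for 1, Hdac3, beside 6.93% and 5.94% of all genes. No member passed, and the median was -0.13, or -0.29 without GW1516 replicate 3. Ppargc1a, the coactivator gene of mitochondrial biogenesis, had means of 7.76 with TTNPB and 8.10 with GW1516 (difference -0.33, adjusted p = 0.219). Among 18 genes of transcription elongation and splicing, GW1516 arrays stood above for 4 (Nelfa, Srsf2, Srsf3 and Ppp1r10) and TTNPB arrays for 0, again beside 6.93% and 5.94%, with a median of -0.15 and 0 passing. Of these, Ppp1r10, a regulatory subunit of nuclear protein phosphatase, had 4.62 with TTNPB and 5.52 with GW1516 (difference -0.89, adjusted p = 0.0883).

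The 26 immediate early and serum response genes had 6 with GW1516 arrays above (Egr2, Dusp5, Spry1, Spry2, Spred1 and Srf) and 0 with TTNPB arrays above, beside 6.93% and 5.94% of all genes. Their median was -0.08, or -0.17 without GW1516 replicate 3, and 0 passed. The proto-oncogene Myc read 7.86, 7.95 and 7.31 with GW1516 and 7.26, 7.26 and 7.54 with TTNPB, so the groups overlapped (difference -0.35, adjusted p = 0.362). Without GW1516 replicate 3, Myc (-0.55, adjusted p = 0.0192) and the ERK phosphatase gene Dusp6 (-0.27, adjusted p = 0.0403) passed. The 26 cell cycle genes were balanced, with 13 positive and 13 negative differences, a median of -0.01 and 0 passing, and of 21 genes of apoptosis and growth arrest 0 passed as well (median -0.06). Of 20 ER stress genes, 17 NRF2 and AhR targets, 19 hypoxia and glycolysis genes and 18 EMT and TGF-beta targets, none passed either. The same held for 11 heat shock, 18 interferon, 21 NF-kB and cytokine, 19 Notch and Wnt, 21 lipid droplet and fatty acid uptake genes and the 9 genes of RARs, RXRs and PPARs, with medians between -0.03 and 0.08, or between -0.01 and 0.10 without GW1516 replicate 3. Of these lists, 1 gene then passed, Plin2. Only 8 of the interferon, 7 of the NF-kB and cytokine and 14 of the lipid droplet and uptake genes exceeded background, and members under it gave no measure. For EMT and TGF-beta targets the median was 0.15, or 0.06 without GW1516 replicate 3, and the repressor gene Snai1 had 5.09, 5.29 and 5.40 with TTNPB against 4.70, 4.97 and 4.18 (difference 0.64, adjusted p = 0.359).

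For 10 of 27 oxidative phosphorylation genes, all TTNPB arrays exceeded all GW1516 arrays, beside 5.94% of all genes, and the reverse held for 1, Cox5b. The median was 0.14 and 0 passed. GW1516 replicate 3 set the size for several: Cox6a1 read 11.52, 11.62 and 10.11 with GW1516 and 11.75, 11.62 and 11.80 with TTNPB, and Uqcrfs1 read 4.60, 4.52 and 3.13 against 4.65, 4.64 and 4.91. Without that array the differences of Cox6a1 and Uqcrfs1 went from 0.64 and 0.65 to 0.16 and 0.17, the list's median was 0.09, and TTNPB arrays stood above the remaining GW1516 arrays for 13 genes, beside 17.7% of all genes. Of 17 translation initiation genes, 1 passed, Eif4a1.

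**Figure D4:**
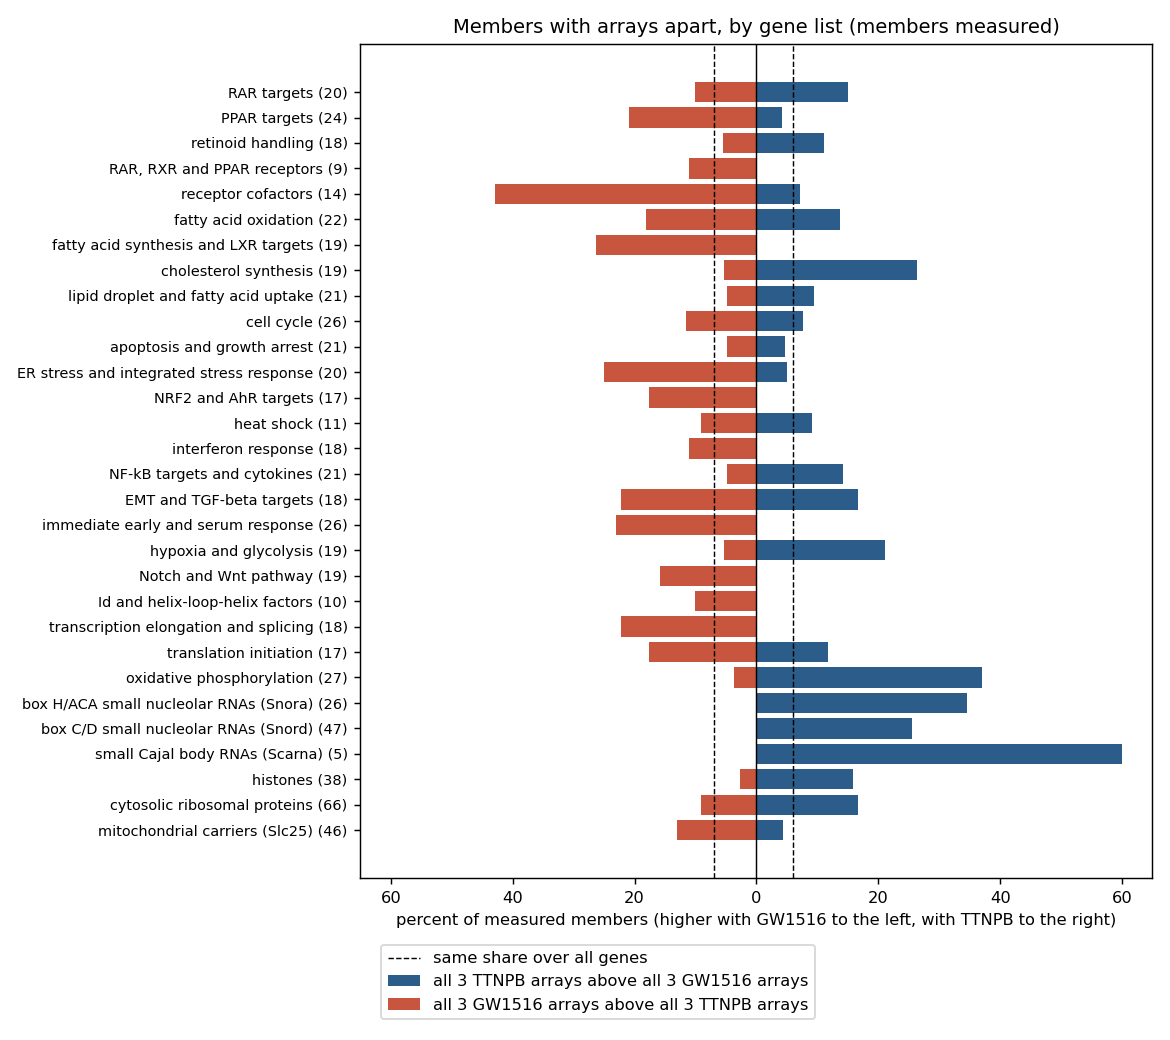
Share of each list's measured genes with all 3 TTNPB arrays above all 3 GW1516 arrays, and with the reverse, beside the shares over all 22180 genes (5.94% and 6.93%, dashed). Small nucleolar and Cajal body RNAs, oxidative phosphorylation genes and cholesterol synthesis genes have the larger TTNPB shares, and receptor cofactors the largest GW1516 share at 6 of 14 genes. GW1516 replicate 3 is included, and of the 6 arrays it had the lowest mean level of cholesterol synthesis genes, at 5.46.

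Small RNA genes, described as families by symbol, had positive differences (TTNPB minus GW1516) for 20 of 26 Snora, 37 of 47 Snord and 4 of 5 Scarna genes. Of the 26 box H/ACA genes (Snora), 1 passed, and the TTNPB arrays stood above all GW1516 arrays for 9 and below for 0. Of the 47 box C/D genes (Snord), which guide ribose methylation, 0 passed, with 12 and 0, and of the 5 Cajal body genes (Scarna), 2 passed, with 3 and 0. Over all genes, 0.0225% passed as higher with TTNPB, and the arrays stood apart for 5.94% and 6.93%. The families' median differences were 0.29, 0.27 and 0.23, and 0.26, 0.22 and 0.39 without GW1516 replicate 3, beside 0.0010 and 0.0357 over all genes. The mean Snora level was 4.69 to 4.92 on TTNPB arrays, 4.49 to 4.57 on GW1516 arrays and 4.71 to 5.04 on control arrays. The mean Snord level was 4.42, 4.69 and 4.78 with TTNPB and 4.39, 4.48 and 4.04 with GW1516, so these groups overlapped and GW1516 replicate 3 was lowest. The host genes Snhg12, Atg16l1 and Ncl, the nucleolin gene that holds Snora75, had differences of -0.34, -0.24 and -0.20, and none of them passed. Of 38 histone genes and 66 cytosolic ribosomal protein genes, none passed, with medians of 0.03 and 0.04 (0.07 and 0.02 without GW1516 replicate 3), and of 483 microRNA genes 0 passed (median -0.01). Without GW1516 replicate 3 the microRNA median was 0.08 and 1 gene, Mir5099, passed (difference -0.29, adjusted p = 0.0340). Only 110 of the 483 microRNA genes exceeded background.

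Of the single arrays left out, GW1516 replicate 3 changed the count most. The remaining 5 arrays gave 45 genes (0.203%), 13 (0.0586%) higher with TTNPB and 32 (0.144%) higher with GW1516, and all 15 genes remained among them. Of the 30 that passed only there, 22 were higher with GW1516 and 8 with TTNPB. Those higher with GW1516 included the matrix protein gene Ccn1 (difference -1.06, adjusted p = 0.0384), the clotting initiator gene F3 (-0.88, 0.0302), the amino acid transporter gene Slc38a2 (-0.75, 0.0124) and the focal adhesion gene Zyx (-0.50, 0.0463), beside Abca1, Acot2, Plin2, Myc and Dusp6. F3 shows the pattern: GW1516 replicates 1 and 2 read 4.83 and 4.64, replicate 3 read 3.82, and the TTNPB arrays read 3.80, 3.93 and 3.86. Those higher with TTNPB included Slc6a13, the GABA receptor subunit gene Gabrp (0.32, adjusted p = 0.0257), the endocytic gene Ehd3 (0.42, 0.0384) and Fbxo2, a ubiquitin ligase subunit gene (1.17, 0.0332). Fbxo2 read 1.69 and 1.52 on GW1516 replicates 1 and 2, 3.38 on replicate 3, and 2.83, 2.73 and 2.77 with TTNPB. Apart from those on the lists or under the naming rule, the genes of this paragraph were chosen after their values were seen, and why replicate 3 differs was not tested.

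**Figure D5:**
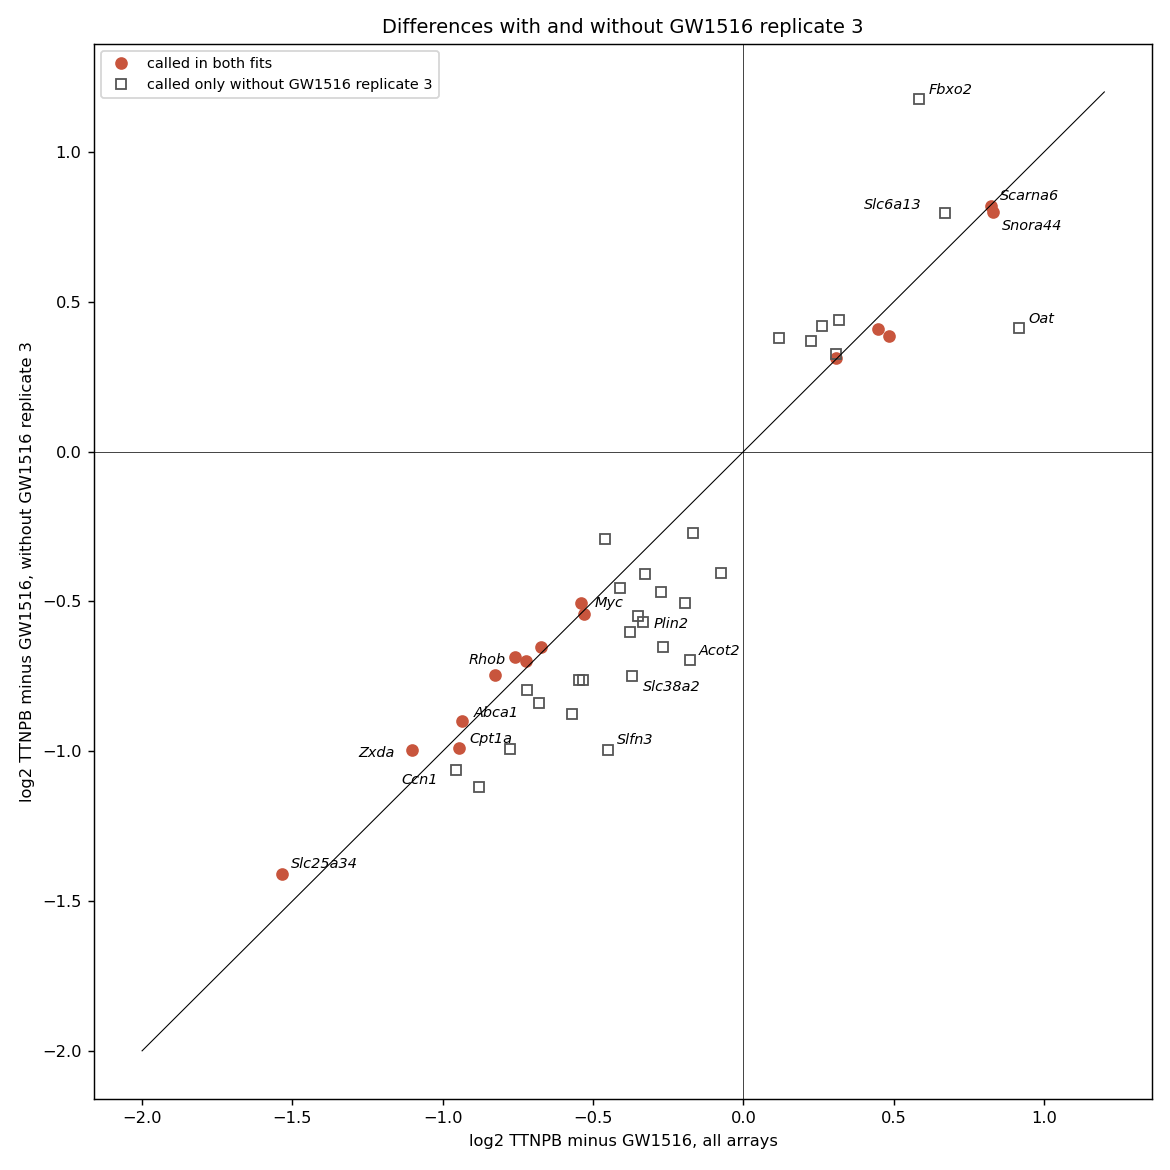
Log2 difference, TTNPB minus GW1516, with all arrays (across) and without GW1516 replicate 3 (upward) for the 45 genes called in the second fit, with the line of equal values drawn. The 15 genes called in both fits lie near the line, and the 30 called only without the array lie mostly farther from 0 in the second fit, with Oat as an exception at 0.92 and 0.41.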

How the data were processed

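The authors deposited log2 expression values of 41345 probe sets on 18 arrays. Partek is named per the submitters' processing notes, and its version and the background correction and normalization are not given in the sources used here. RNA was labelled as biotinylated cRNA per the labels' protocols. The log2 scale was inferred from the range of the deposited values. Array medians were 1.06 to 1.32 in charcoal serum and 0.473 to 0.548 in full medium, so levels of the 2 sera were not compared. Between the arrays compared, at most 0.380% of probe sets had identical values (within 1e-06) in a pair.

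Gene names came from the platform annotation: 23521 probe sets carried 1 symbol, 1814 several and 16010 none, and 23328 symbols were updated through Entrez numbers in a GRCm38.p6 table. Where a gene had several probe sets (1082 genes), the brightest by mean over the 18 arrays stood for it. Group means of all 6 groups were fitted with limma 3.58.1 in R 4.3.3 (eBayes with trend, 12 residual degrees of freedom), and 2-sided p-values were adjusted over all 22180 genes by Benjamini-Hochberg at 0.05. Dim genes were kept. The number of arrays limits the precision: the median SE was 0.130. The code was tested on simulated data.

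Named were up to 15 genes in each direction that passed, did not overlap between groups and exceeded background, filled by uncalled genes of the smallest p with a difference of at least 0.5 (10 for TTNPB and 5 for GW1516), up to 4 called members of each list (8 for the RAR, PPAR and retinoid lists) and a set of RAR and PPAR genes in any case. The comparison, lists and rule were chosen with earlier results of these data known, and some lists come from that earlier work. Of 536 list genes, 481 were measured. Promoters came from RefSeq tables. Same-numbered arrays of the groups did not deviate together (r = -0.05, -0.14 and -0.24), and differently numbered ones had r from -0.13 to 0.22. With 3 arrays a group, these values cannot settle whether the numbers pair the arrays. The main fit used no pairing.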

Additional observations from a re-analysis of the deposited data

How the results depend on the processing

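The 15 calls depend on the arrays in the fit, as the counts show. With only the 6 arrays (4 residual degrees of freedom) limma with Benjamini-Hochberg adjustment gave 0 genes, with the 12 charcoal-serum arrays 7, with arrays centred on their medians 6 (0 higher with TTNPB), with array weights 66 (21 higher with TTNPB), and at an adjusted p below 0.01, 3. The replicate number as a replicate block gave 5 genes, 0 higher with TTNPB, all among the 15. Leaving out single arrays gave 4 to 45, and leaving out GW1516 replicate 3 in the charcoal-serum fit, a setting chosen after the data were seen, gave 64. Quantile normalization (18 genes, 7 higher with TTNPB), a robust prior (14), no trend (20), dim genes left out (21 of 12219), means of probe sets (14), all probe sets (18 of 41345) and a fold of at least 1.5 (10) stayed within 1.5 times the count. Of the 15 genes, 0 passed in every setting and 2, Cpt1a and Rhob, passed in all but the 6 arrays. Over 49 named genes, 830 recomputed values gave 702 on the same side of the threshold, 94 (15 genes) that lost a call and 34 (14 genes) that gained one. No called gene changed sign, and 14 values of 8 uncalled genes did, none larger than 0.148. The causes were not tested. Centring and quantile normalization moved the median of all genes to 0.0020 and 0.0118. Low signal limits Zxda, Phxr4, Ctsz, Sla2 and the targets under background.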

Other observations

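Probe sets without a single gene symbol were outside the gene comparison. When all 41345 probe sets were tested with limma and Benjamini-Hochberg adjustment, 18 passed, and 11 of these had no single symbol, 9 higher with GW1516 and 2 higher with TTNPB. The largest differences among them were 2.86 higher with GW1516 and 1.51 higher with TTNPB on the log2 scale, both beyond those of the named genes that passed. Their identity was not analysed here.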
